A study of Mus musculus with 491 samples.

Results

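Phox2a, Tlx2, Tlx3, Chrna3, Ret and Gfra1, genes of the visceral neuron program, were followed through single cells of the mouse otic vesicle and the tissue around it. They were taken by name, as 6 of the 19494 genes with a usable row. The questions were how often the 6 were found in the same cell, and how far the cells that held them were apart from neurons with Pou4f1. The cells came from embryos at E10.5 with the genotype Pax2-Cre/+;Ai14-tdTomato/+, in which cells that have expressed Cre under Pax2 control, and their descendants, carry the red fluorescent protein tdTomato. Every cell was sorted as tdTomato-positive, so there was no other genotype and no treated or unlabelled control, and cells without a history of Cre were not in the sort. Replicate 1 holds 237 cells on plates 1 to 3 and replicate 2 holds 254 cells on plates 4 to 6. Nothing in the labels ties the replicates to separate embryos, litters or sorting days, so what separates them may be technical. The p-values below set class differences against how far such differences vary across these 2 replicates, pooled over all fitted classes.

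Phox2a is a homeodomain transcription factor that takes part in specifying neurons of the visceral reflex circuits, among them the epibranchial placode-derived sensory neurons of the geniculate, petrosal and nodose ganglia, autonomic neurons and branchial and visceral motor neurons. Tlx2 and Tlx3 are homeodomain factors of the Tlx family that are present in several of the same neurons, and Tlx3 is also known from somatosensory neurons. Chrna3 encodes a subunit of the ganglionic nicotinic acetylcholine receptor, Ret encodes a receptor tyrosine kinase, and Gfra1 encodes the co-receptor through which Ret responds to glial cell line-derived neurotrophic factor (GDNF). Pou4f1 (Brn3a) is a POU-homeodomain factor of somatosensory and cochleovestibular neurons.

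On the GRCm38 assembly, with the GENCODE M21 annotation, Phox2a lies at chr7:101818313-101822726 on the plus strand, Tlx2 at chr6:83068324-83070293, Tlx3 at chr11:33200752-33203589, Chrna3 at chr9:55010111-55026562, Ret at chr6:118151745-118197718 and Gfra1 at chr19:58235604-58455909, the last 5 on the minus strand. Chrna3 stands between Chrna5 (chr9:54980880-55007779) and Chrnb4 (chr9:55028154-55048779), which encode other subunits of the same kind of receptor. Phox2a shares 95 of its 2035 exonic bases (4.67%) with Inppl1 on the other strand, and Inppl1 was found in 2 of the 22 Phox2a-positive neurons described below. Gfra1 overlaps Gm16277 on the other strand, and strand-specific counting is not stated in the sources used here. No 75-base window was shared between the transcripts of Tlx2 and Tlx3 (0 of 1580 windows).

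Many homeodomain proteins bind DNA that holds the core ATTA, and several members encode such proteins. The letters ATTA and their reverse complement TAAT were looked for in the 250 bases before the start of each gene, with the sequences and starts of RefSeq on GRCm38.p6. Promoters of 4 of the 6 members were matched: Phox2a, Tlx3, Chrna3 and Gfra1. The 3 printed here are those of a transcription factor with the core, a transcription factor without it and a receptor subunit without it, together with the promoter of Dbh, which encodes the noradrenaline-making enzyme dopamine beta-hydroxylase and is one of the genes that differed most between the neuron classes below. Each is given 5′ to 3′ on the strand of its gene, and capitals mark the core on either strand, with overlapping matches counted by their first base.
Tlx3 (chr11:33203589-33203838, minus strand): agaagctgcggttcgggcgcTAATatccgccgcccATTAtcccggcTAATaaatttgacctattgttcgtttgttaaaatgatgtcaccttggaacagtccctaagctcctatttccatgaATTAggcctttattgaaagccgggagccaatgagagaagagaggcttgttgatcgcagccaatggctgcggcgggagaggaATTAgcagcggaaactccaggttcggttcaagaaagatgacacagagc
Phox2a (chr7:101818063-101818312, plus strand): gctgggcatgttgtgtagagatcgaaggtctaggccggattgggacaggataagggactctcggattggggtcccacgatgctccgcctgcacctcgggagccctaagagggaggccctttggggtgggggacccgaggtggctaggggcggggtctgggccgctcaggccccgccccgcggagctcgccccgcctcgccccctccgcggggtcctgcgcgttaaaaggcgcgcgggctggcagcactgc
Chrna3 (chr9:55026563-55026812, minus strand): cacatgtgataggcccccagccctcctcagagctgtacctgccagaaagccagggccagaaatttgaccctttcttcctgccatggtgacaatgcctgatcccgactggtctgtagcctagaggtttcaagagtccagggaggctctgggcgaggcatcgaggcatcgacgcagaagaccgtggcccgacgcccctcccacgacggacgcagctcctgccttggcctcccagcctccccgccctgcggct
Dbh (chr2:27165257-27165506, plus strand): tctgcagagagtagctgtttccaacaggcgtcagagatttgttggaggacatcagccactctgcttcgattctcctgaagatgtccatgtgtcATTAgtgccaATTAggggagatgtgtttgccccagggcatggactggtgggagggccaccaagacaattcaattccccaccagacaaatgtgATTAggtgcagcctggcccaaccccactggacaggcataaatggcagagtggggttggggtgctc
The core stood 5 times in the Tlx3 window, with first bases at -230, -215, -204, -129 and -48 from the start of the gene, and 3 times in the Dbh window, at -157, -147 and -65. It stood in none of the windows of Phox2a, Chrna3 and Gfra1 (chr19:58455399-58455648, minus strand). For Gfra1 and Dbh the RefSeq start differs from that of GENCODE, and their windows lie inside the gene as GENCODE places it. Of 32851 promoters of this length, 54.9% held the core at least once, 17.3% at least 3 times and 5.54% at least 5 times, and 45.1% held none. These matches describe letters in a window and are not binding sites.

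Values are FPKM, fragment counts scaled to transcript length and library size, and a gene is called found in a cell from an FPKM of 1. The sum of FPKM was 148501 to 439456 per cell, 2552 to 6403 genes were found per cell (median 4513), and depth in reads is unknown. Some wells held, at a low level, the rare genes of a well in another plate row: 19 pairs of rows, 17 of them neighbours on 1 plate, were linked in this way. Of the cells, 337 had such a source well and 154 had none, and a well held a median of 6.4% of the level in its source. Some counts of cells are therefore also given for cells without a source well, or with values called corrected below. For these, a value below 3 times the held share of its source level was taken as absent, and other values were kept. In a single cell, absence of a gene and an RNA that was not captured cannot be told apart.

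Cells were placed in classes by 5 gate genes at an FPKM of 10. Neurons were the 148 cells with Stmn2, a gene of growing axons. Of these, 22 (4.48% of all cells, 12 and 10 in replicates 1 and 2) had Phox2a and not Pou4f1, 54 (11%, 27 and 27) had Pou4f1 and not Phox2a, 1 had both and 71 (32 and 39) had neither. Cells with Stmn2 below an FPKM of 10 were Neurod1-positive neuroblasts (66 cells, 19 and 47), Epcam-positive epithelial cells (169) or the remaining cells (108). The median number of genes found was alike in the neuron classes and neuroblasts, at 4620.5 in Phox2a-positive neurons, 4560 in Pou4f1-positive neurons, 4510 in neurons with neither gene and 4424.5 in neuroblasts. With corrected values, the Phox2a-positive neurons numbered 19, the Pou4f1-positive neurons 52, the neurons with neither gene 34 and the neuroblasts 51. Tlx2 and Tlx3 took no part in the gates but are members themselves, so their counts do not check the label of a visceral neuron program. Tlx2 was found in 16 of the 22 Phox2a-positive and 10 of 54 Pou4f1-positive neurons, and Tlx3 in 13 of 22 and 18 of 54.

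The 6 members were found in between 29 and 195 cells of the sort. Ret was found in 29 cells (5.91%), Phox2a in 53 (10.8%), Tlx3 in 59 (12%), Tlx2 in 67 (13.6%), Chrna3 in 103 (21%) and Gfra1 in 195 (39.7%). After correction these counts were 22, 42, 49, 47, 72 and 147. The members were mostly neuronal but not equally so: the 148 neurons held 28 of the 29 cells with Ret, 49 of 59 with Tlx3, 76 of 103 with Chrna3, 42 of 67 with Tlx2, 35 of 53 with Phox2a and 104 of 195 with Gfra1. Outside neurons, Tlx3 was found in 0 of 169 Epcam-positive cells, which allows a share of up to 1.78%, and Tlx2 in 0 of 108 remaining cells, which allows up to 2.78%. Of the 169 Epcam-positive cells, 39 had Gfra1 (23.1%), 9 had Tlx2, 4 had Phox2a, 1 had Chrna3 and 1 had Ret. Of the 108 remaining cells, 5 had Chrna3, 4 had Gfra1, 3 had Tlx3 and 1 had Phox2a.

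**Figure D1:**
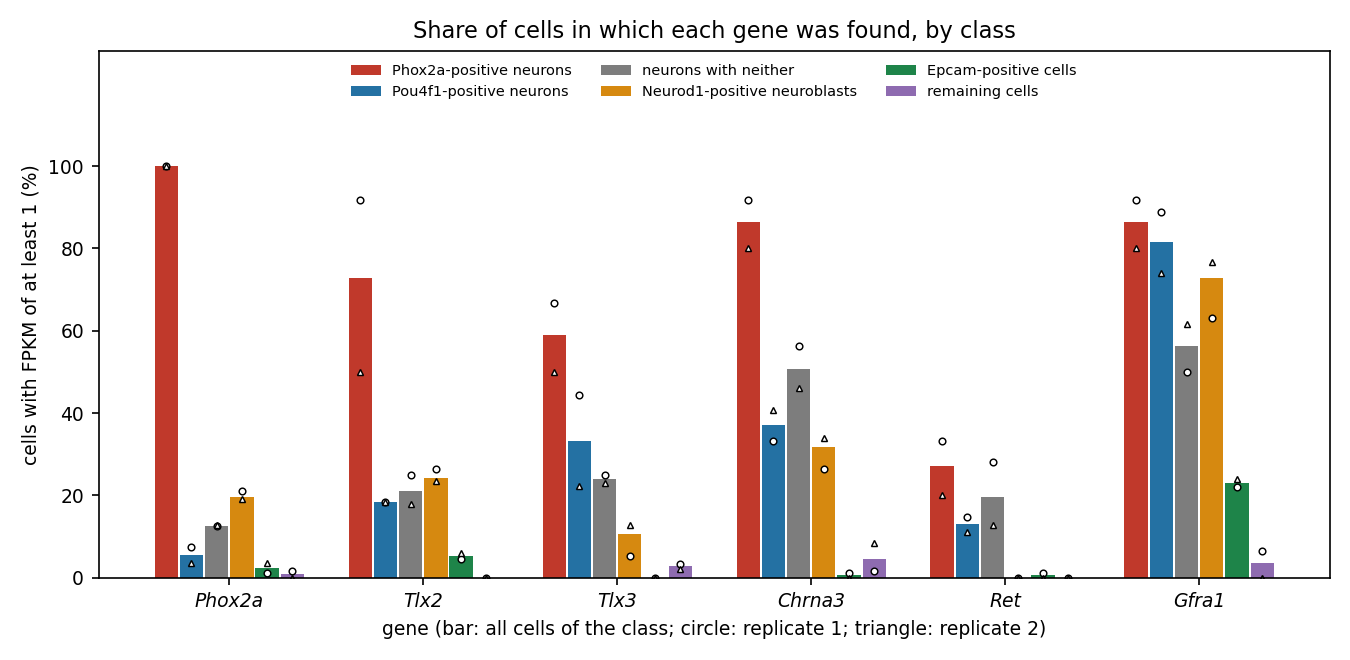
Share of cells (%) with an FPKM of at least 1 for each member in 6 classes, with all cells of a class as the bar and replicates 1 and 2 as circle and triangle. Tlx2 was found in 72.7% of Phox2a-positive neurons and 18.5% of Pou4f1-positive neurons, while Gfra1 was found in 86.4% and 81.5%; Phox2a is at 100% in the first class by its gate.

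Of the transcription factors, Tlx2 was found in 16 of 22 Phox2a-positive neurons (72.7%), against 10 of 54 Pou4f1-positive neurons (18.5%), 15 of 71 neurons with neither gene (21.1%) and 16 of 66 neuroblasts (24.2%). Its level in the 22 neurons ran from 0 to 631.1 FPKM with a median of 155.2, and in the 54 from 0 to 450.5 with a median of 0. So the ranges overlapped, but the typical Phox2a-positive neuron had Tlx2 and the typical Pou4f1-positive neuron had none. The replicates differed in this gene, with 11 of 12 Phox2a-positive neurons of replicate 1 and 5 of 10 of replicate 2.

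Tlx3 was found in 13 of 22 Phox2a-positive neurons (59.1%, 8 of 12 and 5 of 10 by replicate), 18 of 54 Pou4f1-positive neurons (33.3%), 17 of 71 with neither gene (23.9%) and 7 of 66 neuroblasts (10.61%). Its levels were lower than those of Tlx2, from 0 to 81.9 FPKM (median 8.605) in Phox2a-positive neurons and from 0 to 48.4 (median 0) in Pou4f1-positive neurons. Both classes thus held neurons with Tlx3 and neurons without it. All 18 Pou4f1-positive neurons with Tlx3 still had it after correction, and 11 of the 17 Pou4f1-positive neurons without a source well had it.

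Chrna3, the receptor subunit, was found in 19 of 22 Phox2a-positive neurons (86.4%, 11 of 12 and 8 of 10), with levels of 0 to 274.4 FPKM and a median of 68.6. It was found in 20 of 54 Pou4f1-positive neurons (37.0%), from 0 to 170.5 with a median of 0, in 36 of 71 neurons with neither gene (50.7%) and in 21 of 66 neuroblasts (31.8%). The count in neurons with neither gene fell from 36 to 18 after correction, and those in the Phox2a-positive and Pou4f1-positive neurons were 17 and 19. Chrna3 therefore marked most Phox2a-positive neurons without being absent from the others. Of the 103 cells with Chrna3, 43 also had Chrnb4, and 43 of the 54 cells with Chrnb4 had Chrna3, the subunit whose gene lies next to it.

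The receptor pair behaved in unlike ways. Ret was the rarest member, in 6 of 22 Phox2a-positive neurons (27.3%, 4 of 12 and 2 of 10), 7 of 54 Pou4f1-positive neurons (13%), 14 of 71 with neither gene (19.7%) and 0 of 66 neuroblasts, which allows a share of up to 4.55%. Its level was 0 in the median neuron of each class and reached 82.5 FPKM in Phox2a-positive and 39.0 in Pou4f1-positive neurons. Gfra1 was the most widespread, in 19 of 22 Phox2a-positive neurons (86.4%, 11 of 12 and 8 of 10), 44 of 54 Pou4f1-positive neurons (81.5%), 40 of 71 with neither gene (56.3%) and 48 of 66 neuroblasts (72.7%). Its levels were 0 to 190.7 FPKM with a median of 42.9 in Phox2a-positive neurons and 0 to 102.0 with a median of 25.5 in Pou4f1-positive neurons, which overlapped over most of their range. Of the 29 cells with Ret, 23 had Gfra1 (79.3%), whereas 11.8% of the cells with Gfra1 had Ret. Among neurons, 23 of 28 with Ret had Gfra1 (82.1%), next to 104 of all 148 neurons. In the 6 cells with Ret and no Gfra1, the related co-receptor Gfra2 was found in 1 and Gfra3 in 0.

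Within single cells, members were found together most often in the Phox2a-positive neurons. At least 4 of the 6 were found in 16 of 22 of these (72.7%), in 6 of 54 Pou4f1-positive neurons (11.11%), in 12 of 71 neurons with neither gene and in 9 of 66 neuroblasts. Phox2a counts as 1 of the 6 and is given by the gate in the first class, so the classes start unequal. The counts in this paragraph use the deposited values and were not repeated with corrected values. A source well can hand over several members at once, and its part in these counts was not tested. After correction, 34 neurons with neither gene were left in place of 71. No Epcam-positive or remaining cell held 3 or more, and 257 cells of the sort held none. All 6 were found in 10 cells, of which 4 were Phox2a-positive, 1 was Pou4f1-positive, 1 had both gate genes and 4 had neither. The 22 Phox2a-positive neurons fell into 9 combinations. The commonest was the set of 5 without Ret, in 6 neurons, followed by Phox2a, Tlx2, Chrna3 and Gfra1 in 4 and all 6 members in 4. Phox2a with Chrna3 alone, and Phox2a with Chrna3 and Gfra1, were found in 2 neurons each, and the other 4 combinations in 1 each.

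**Figure D2:**
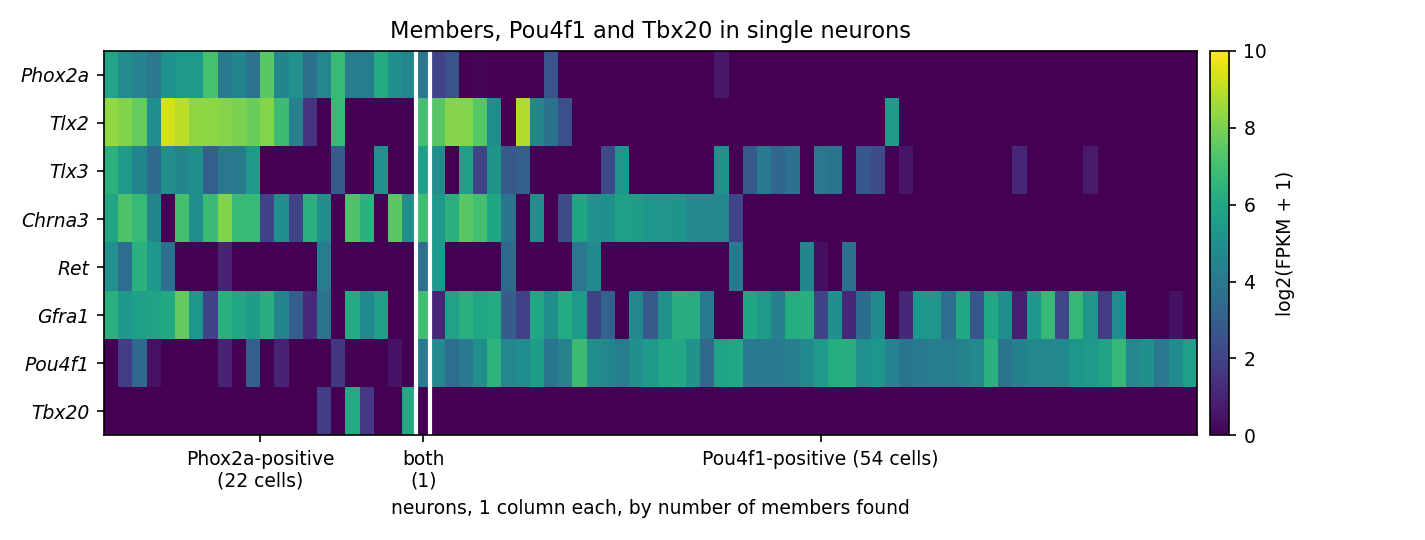
Level of the members, Pou4f1 and Tbx20 as log2(FPKM + 1) (color) in the 22 Phox2a-positive neurons, the neuron with both gate genes and the 54 Pou4f1-positive neurons, 1 column each, ordered within a class by the number of members found. Tlx2 and Chrna3 fill most of the first class, Gfra1 runs through both, and Tbx20 appears in 4 Phox2a-positive neurons without Tlx2.

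Pair by pair over all cells, Phox2a was found together with Tlx2 in 41 of its 53 cells (77.4%), with Gfra1 in 41 (77.4%), with Chrna3 in 40 (75.5%), with Tlx3 in 26 (49.1%) and with Ret in 12 (22.6%). The shares of the partners' own cells were 61.2% of those with Tlx2, 21.03% of Gfra1, 38.8% of Chrna3, 44.1% of Tlx3 and 41.4% of Ret. Tlx2 thus had the largest share of its own cells with Phox2a, and Gfra1, found in as many Phox2a cells, had the smallest. The Pearson correlation of log2(FPKM + 1) with Phox2a over all cells was 0.70 for Tlx2, 0.54 for Chrna3, 0.48 for Tlx3, 0.32 for Gfra1 and 0.23 for Ret. These are descriptions across cells that share plates and, in part, RNA of linked wells. In the 10 cells with Phox2a and no source well, Tlx2 was found in 7, Tlx3 in 7, Chrna3 in 8, Gfra1 in 8 and Ret in 3. With corrected values, 42 cells had Phox2a, and of these 29 had Tlx2, 29 Gfra1, 30 Chrna3, 22 Tlx3 and 9 Ret. At least 3 of the other 5 were then found in 25 of the 42 (59.5%). With the deposited values, at least 3 of the other 5 members were found in 34 of the 53 cells with Phox2a (64.2%, exact 95% binomial interval 49.8 to 76.9, counting error only), in 19 of 24 such cells of replicate 1 (79.2%) and 15 of 29 of replicate 2 (51.7%).

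Phox2a and Pou4f1 were rarely high in the same cell. Of the 53 cells with Phox2a, 11 also had Pou4f1 (20.8%, exact 95% interval 10.8 to 34.1), next to 19.96% of all cells with Pou4f1. All 11 were neurons, and among neurons the share was lower than the background: 11 of 35 with Phox2a had Pou4f1 (31.4%), next to 80 of all 148. At an FPKM of 10 for both genes, 1 of 34 cells with Phox2a had Pou4f1 (2.94%, interval 0.0744 to 15.3), next to 12.22% of all cells. At an FPKM of 30 it was 0 of 14, which allows a share of up to 21.4%. In the other 10 of the 11 cells with both genes, at least 1 of them was therefore below an FPKM of 10. Over the 148 neurons the correlation of Phox2a and Pou4f1 was -0.31, and that of Phox2a and Tlx2 was 0.62. In the single neuron past both gates Phox2a was at 14.4 FPKM and Pou4f1 at 16.3, and all 5 other members were found: Tlx2 at 129.3, Tlx3 at 50.6, Chrna3 at 120.8, Ret at 11.8 and Gfra1 at 120.1. It also had Dbh at 140.1 FPKM, and correction left these values as they were.

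**Figure D3:**
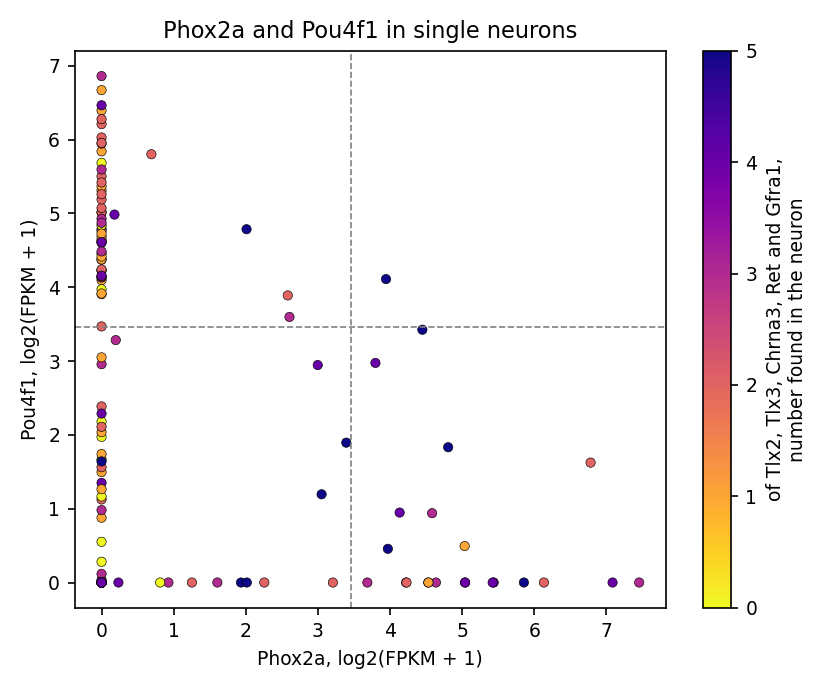
Phox2a against Pou4f1, both as log2(FPKM + 1), in the 148 neurons, colored by how many of Tlx2, Tlx3, Chrna3, Ret and Gfra1 were found, with dashed lines at the gate of FPKM 10. The points lie along the 2 axes, with 1 neuron past both lines. Neurons with many members lie along the Phox2a axis, but also along the Pou4f1 axis and among neurons with neither gate gene.

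Pou4f1 was set against the other members in the same way. At an FPKM of 10 for both genes, Pou4f1 was found in 17.2% of the cells with Tlx2, 26.4% of those with Chrna3, 26.7% of those with Gfra1, 31.2% of those with Tlx3 and 31.8% of those with Ret. The share in all cells was 12.22%. Among neurons at this level the shares were 26.3% for Tlx2, 33.3% for Ret, 33.9% for Chrna3, 37.0% for Tlx3 and 47.8% for Gfra1. Of all 148 neurons, 55 had Pou4f1 at an FPKM of 10. At an FPKM of 1 the shares over all cells were 32.8% for Tlx2, 35.0% for Chrna3, 35.9% for Gfra1, 48.3% for Ret and 55.9% for Tlx3, next to 19.96%. Over all cells of both replicates, Tlx3 and Ret thus had the highest shares at both thresholds, while among neurons at an FPKM of 10 Gfra1 had. Over all cells at an FPKM of 10, the share of Tlx3 was 8 of 18 cells in replicate 1 (44.4%) and 2 of 14 in replicate 2 (14.3%), the lowest of these 5 members there. At an FPKM of 30, Pou4f1 was found in 2 of 14 cells with Tlx3 and 0 of 9 with Ret, which is too few to order them. Among the 54 Pou4f1-positive neurons, 18 had Tlx3 and 36 did not, and the somatosensory homeodomain gene Shox2 was found in 13 of the 18 and 33 of the 36. In the same 18 and 36 neurons, Tlx2 was found in 5 and 5, Chrna3 in 8 and 12, Gfra1 in 15 and 29 and Phox2a in 1 and 2. The cells of a class come from the same 2 replicates, so no test was made on these counts.

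The mean log2(FPKM + 1) per class and replicate was compared with limma across 10236 genes, with Benjamini-Hochberg adjustment and a call at an adjusted p below 0.05. The 5 gate genes were left out, so Phox2a itself has no test in the first 3 comparisons. Against Pou4f1-positive neurons, Tlx2, Tlx3 and Chrna3 were higher in Phox2a-positive neurons, and Ret and Gfra1 were not called. Of the 5 members tested, 3 were called, where 3.19% of all genes tested were called (327, of which 1.75% higher and 1.45% lower). The median difference was 1.43 over the 5 members and 0.03 over all genes. The count of all genes called was 210 without plate 2 and 217 without plate 6.

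Chrna3 had means of 5.29 and 4.77 in Phox2a-positive neurons (replicates 1 and 2) and 1.93 and 1.84 in Pou4f1-positive neurons. The difference was 3.14 (SE 0.40, adjusted p = 0.000814 by limma), and it had the same sign on all 5 plates that held both classes. With the log2 of the mean FPKM in place of the mean log2 value it was 2.14 and not called (adjusted p = 0.166). Tlx2 had means of 6.65 and 3.58 against 1.17 and 1.09, a difference of 3.98 (SE 0.64, adjusted p = 0.00378). The means did not overlap, but replicate 1 alone gave 5.48 and replicate 2 alone 2.49, only 3 of 5 plates had the sign of the whole, and without plate 6 the difference was 2.97 and not called (adjusted p = 0.135). With no filter on low values it was not called either (adjusted p = 0.0668). Tlx3 had means of 3.07 and 2.21 against 1.77 and 0.66, a difference of 1.43 (SE 0.33, adjusted p = 0.0319). This call was near the threshold. It was not made in 10 of 19 other settings with a test, among them corrected values (1.75, adjusted p = 0.0622), a gate at an FPKM of 1 (0.78, adjusted p = 0.181) and each of the fits without plate 1 (0.0836), plate 2 (0.0792), plate 5 (0.0694) or plate 6 (0.104, adjusted p by limma in each case). Ret had means of 1.61 and 1.01 against 0.69 and 0.43, a difference of 0.75 (SE 0.19) that missed the threshold at an adjusted p of 0.0508. It passed without plate 2 (0.87, adjusted p = 0.0365), plate 4 (0.81, 0.0499) or plate 5 (0.90, 0.0299). Gfra1 had means of 4.33 and 4.54 against 3.96 and 3.47, a difference of 0.72 (SE 0.41, adjusted p = 0.388), and was called in none of the 19 settings.

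**Figure D4:**
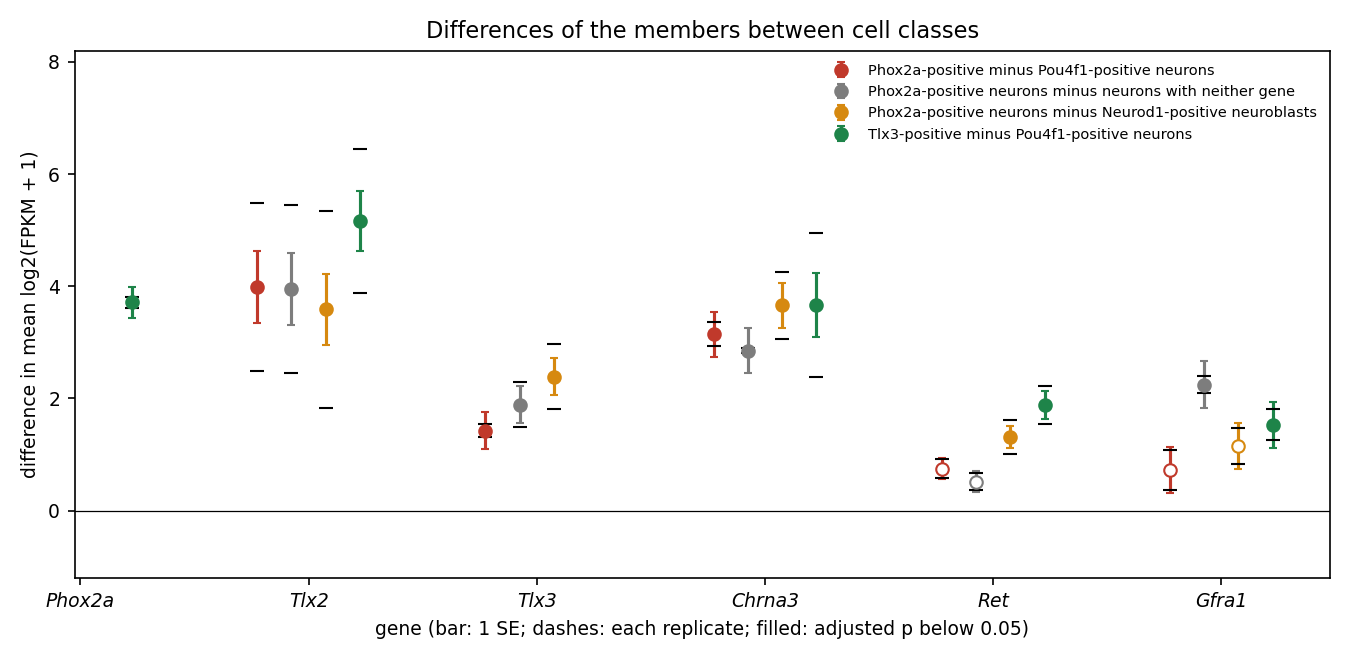
Difference of each member in mean log2(FPKM + 1) between cell classes in 4 comparisons, with bars of 1 SE, dashes for the replicates and filled points at an adjusted p below 0.05 (limma). Tlx2 and Chrna3 are filled and above 2 in every comparison, while Gfra1 runs from 0.72 to 2.24. Gate genes have no point. The first 3 comparisons share the Phox2a-positive neurons, and 11 of these are among the Tlx3-positive neurons of the last.

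Markers of other cell types were summed in the same classes. Summed over the otic and somatosensory genes Pou4f1, Prdm12 and Shox2, mean log2 values were 2.026 and 1.495 in Phox2a-positive and 9.586 and 10.33 in Pou4f1-positive neurons. Pou4f1 is a gate gene, so this sum is apart by the choice of the classes. Of the other pair, Shox2 had means of 0.92 and 1.31 against 3.29 and 4.27, and Prdm12 had 0.21 and 0 against 1.47 and 1.01 and was not called (adjusted p = 0.112 by limma). The branchiomotor list, with 6 of 8 markers in the table, gave 7.91 and 8.34 against 3.87 and 3.65. Of these, Slc18a3 was found in 12 of 22 and 3 of 54 neurons, Isl2 in 14 and 32, Chat in 4 and 0, Tbx20 in 4 and 0, Lhx4 in 2 and 0 and Mnx1 in 0 and 0. The pan-neuronal list, which holds the gate gene Stmn2, gave 64.0 and 77.3 against 71.9 and 70.3, with all 10 markers found in each class. Of its 9 tested genes, Nefl was higher in Phox2a-positive neurons (2.73, adjusted p = 0.00764 by limma). Snap25 was lower (-2.79, adjusted p = 0.00261), and the others were not called. The 16 hindbrain interneuron markers gave 0.56 and 2.37 against 0.93 and 1.75, and of these Lhx2 and Atoh1 were found in 2 Phox2a-positive neurons each, Barhl1, Ptf1a and Gata2 in 1 each and the other 11 in none. The 9 neural tube progenitor markers gave 5.51 and 7.64 against 2.74 and 5.93, with Hes5 and Nes found in 8 Phox2a-positive neurons each, Pax3 and Fabp7 in 6 each, Pax6 in 3, Olig3 in 1 and Sox1, Pax7 and Dbx1 in none. The 4 epibranchial placode markers Foxi2, Neurog2, Sox3 and Eya1 gave 8.780 and 4.286 against 3.997 and 4.147. The 7 otic epithelium markers gave 7.86 and 2.71 against 3.45 and 3.33, and Epcam alone was found in 11 of 22 Phox2a-positive neurons and 15 of 54 Pou4f1-positive neurons (6 and 3 after correction). The branchiomotor and neural tube sums were thus higher in Phox2a-positive neurons in both replicates, and the placode and otic epithelium sums were differed between the replicates of that class. The part of these cell types in the differences was not tested.

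Genes of the members' pathways were described by the same comparison. Of 14 visceral sensory and autonomic regulators, none was called in either direction by limma, with a median difference of -0.11. The LIM-homeodomain gene Isl1 was found in 21 of 22 Phox2a-positive and 50 of 54 Pou4f1-positive neurons (-0.64, adjusted p = 0.521). The lowest unadjusted p values of the list were those of the T-box gene Tbx3 (-0.73, p = 0.00265, adjusted p = 0.0653) and the bHLH gene Neurog2 (1.90, p = 0.0161, adjusted p = 0.16), the 2 below 0.05. Neurog2 differed by 3.74 in replicate 1 and 0.05 in replicate 2. Hand1, Hand2, Hmx2 and Hmx3, factors of autonomic and cranial neurons, were found in none of the 22 Phox2a-positive neurons. Of 5 catecholamine genes tested, 1 was higher, Dbh (2.96, adjusted p = 6.35e-05), with a list median of 0.38. Dbh was found in 12 of 22 Phox2a-positive and 3 of 54 Pou4f1-positive neurons. Th, which encodes the first enzyme of the same path, differed by 0.54 and was not called (adjusted p = 0.136). The 1 tested gene of the cholinergic list, Slc18a3, the vesicular acetylcholine transporter, was higher as well (2.76, adjusted p = 0.000132), and was found in 12 of 22 and 3 of 54 neurons. The same class thus held the marker enzyme of noradrenaline and the transporter of acetylcholine.

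Of 7 nicotinic receptor genes tested, 2 were higher, the Chrna3 neighbours Chrnb4 (2.16, adjusted p = 0.00122 by limma) and Chrna5 (1.08, adjusted p = 0.00694). The muscle-type subunit gene Chrng was lower (-1.63, adjusted p = 0.00125), and the list median was 0.06. So the 3 neighbouring subunit genes on chromosome 9 were all higher in Phox2a-positive neurons. Of 17 genes of the GDNF family, its receptors and partners tested, none was called in either direction by limma, and the median was 0.22. An unadjusted p below 0.05 was reached by 3 of them: the co-receptor gene Gfra2 (-0.38, adjusted p = 0.168), the adaptor gene Frs2 (0.77, adjusted p = 0.155) and the feedback inhibitor gene Spry4 (0.42, adjusted p = 0.254). The ligand gene Gdnf was found in no neuron of either class. Of 10 somatosensory neuron genes, Shox2 was lower (-2.67, adjusted p = 0.000501). Neurod4, a bHLH factor of differentiating neurons, was higher (4.11, adjusted p = 0.000195), and the median was -0.18. Of 3 viscerosensory receptor and factor genes tested, the ATP-gated channel gene P2rx3 was lower (-1.93, adjusted p = 0.00558) and Bdnf was not called (-1.22, adjusted p = 0.108). P2rx3 was found in 9 of 22 Phox2a-positive and 41 of 54 Pou4f1-positive neurons.

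Across all genes, the 10 with the largest positive differences from Pou4f1-positive neurons, among those called with 1 sign in both replicates and on all 5 plates with both classes, included Crabp1, Tppp3, Prnp, Hoxb2, Olfm2, Ndufa4l2, Chrna3, Plk3 and Rem2. Crabp1 encodes a retinoic acid-binding protein (5.25, adjusted p = 0.000604 by limma) and Hoxb2 a Hox factor of the hindbrain and the branchial arches (4.06, adjusted p = 0.000136). Tppp3 encodes a tubulin-binding protein (4.88, adjusted p = 8.99e-05) and Prnp the prion protein (4.24, adjusted p = 0.000132). Olfm2 (3.70), Ndufa4l2 (3.62), Plk3 (3.02) and Rem2 (2.96) followed, at adjusted p between 0.00082 and 0.0187. The value of Olfm2 rests on replicate 2, with 1.71 in replicate 1 and 5.68 in replicate 2. The 10 with the largest negative differences included Gpm6b, a membrane proteolipid of neurons and glia (-4.53, adjusted p = 6.35e-05), Pdlim4 (-3.51), Rprm (-3.43), Pde4dip (-3.05), Gm45837 (-3.04), 3110039M20Rik (-2.83), Fgf10 (-2.81), Rtn4rl2 (-2.78) and Actn3 (-2.69, adjusted p = 0.00167). Among them Fgf10 encodes a growth factor of the otic region and Rtn4rl2 a receptor of the Nogo receptor family.

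The next comparison asked which members were at the level of neurons in Neurod1-positive neuroblasts, which have Stmn2 below an FPKM of 10. It shares the Phox2a-positive neurons with the comparison above and is not independent of it. Tlx2, Tlx3, Chrna3 and Ret were higher in the neurons and Gfra1 was not called, that is 4 of 5 members, where 6.75% of all genes were called higher and 5.83% lower. Neuroblast means in replicates 1 and 2 were 1.31 and 1.75 for Tlx2, 0.11 and 0.39 for Tlx3, 1.04 and 1.70 for Chrna3, 0 and 0 for Ret and 2.86 and 3.70 for Gfra1. The neurons were above these in both replicates for each member. The differences were 3.59 for Tlx2 (adjusted p = 0.00313 by limma), 2.39 for Tlx3 (0.000784), 3.66 for Chrna3 (0.00015), 1.31 for Ret (0.00115) and 1.15 for Gfra1 (0.0851). For Tlx2, replicate 1 alone gave 5.34 and replicate 2 alone 1.84. Without plate 6 the calls of Tlx2 (2.80, adjusted p = 0.0967) and Ret (0.90, adjusted p = 0.083) were not made, and the count of all genes called was 795 in place of 1288. Gfra1 was called without plate 4 (1.52), with means per plate (1.42) and with Elavl4 in place of Stmn2 as the neuron gate (2.68). All 9 pan-neuronal genes tested were higher in the neurons (median 4.70), among them Tubb3 (4.74, adjusted p = 6.33e-06). The gate gene Stmn2, which parts these 2 classes, is on the same list, so this follows in part from the gate. Of the GDNF list, Ncam1, an alternative GDNF receptor (2.74, adjusted p = 0.0197), and the adaptors Shc1 (1.68, adjusted p = 0.0126) and Shc2 (1.79, adjusted p = 0.0319) were higher and Gas1 was lower (-1.29, adjusted p = 0.0149), with a list median of 0.04 beside -0.02 over all genes. Ncam1 differed by 0.95 in replicate 1 and 4.54 in replicate 2, and Shc2 by 0.87 and 2.71. Of 7 nicotinic receptor genes, 4 were higher: Chrnb4 (2.25, adjusted p = 0.000604), Chrna5 (1.11, adjusted p = 0.00241), Chrnb2 (0.52, adjusted p = 0.0383) and the chaperone gene Ric3 (1.62, adjusted p = 0.00633).

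The neuroblast means hide a small group. Phox2a was at an FPKM of at least 10 in 8 of the 66 neuroblasts, 1 in replicate 1 and 7 in replicate 2. Of these 8, Tlx2 was found in 7 with a median of 563.0 FPKM, Chrna3 in 6 with a median of 159.4, Gfra1 in 6, Tlx3 in 3 and Ret in 0. These levels of Tlx2 and Chrna3 lie above the medians of the Phox2a-positive neurons (155.2 and 68.6). Pou4f1 and Dbh were found in 0 of the 8, which allows a share of up to 37.5%, while the neurogenic bHLH genes Neurog2 and Neurod4 were found in 6 and 7. In the other 58 neuroblasts, Tlx2 was found in 9, Chrna3 in 15, Gfra1 in 42, Tlx3 in 4, Ret in 0 and Pou4f1 in 10. The group was looked at after its values were seen and has no test.

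Against the 71 neurons with neither gate gene, Tlx2, Tlx3, Chrna3 and Gfra1 were higher in Phox2a-positive neurons and Ret was not called, again 4 of 5 members, where 2.84% of all genes were called (1.76% higher and 1.08% lower). The differences were 3.95 for Tlx2 (adjusted p = 0.00545 by limma), 1.88 for Tlx3 (0.00818), 2.85 for Chrna3 (0.0024), 2.24 for Gfra1 (0.0122) and 0.51 for Ret (0.159). For Tlx2, replicate 1 alone gave 5.44 and replicate 2 alone 2.46. This comparison shares its first class with the others, and its second class was unlike it in more than the members. The neural tube progenitor markers summed to 13.7 and 13.01 in neurons with neither gene and the hindbrain interneuron markers to 6.95 and 5.17, and 6 of 9 pan-neuronal genes were higher in the Phox2a-positive neurons (median 1.94). Among them were Nefl (4.5, adjusted p = 0.000546) and Nefm (4.19, adjusted p = 0.000546). The part of these cell types in the differences was not tested. With corrected values, which left 34 neurons in the class, the calls of Tlx3 (1.88, adjusted p = 0.0555), Chrna3 (2.33, 0.0592) and Gfra1 (1.89, 0.0651) were not made, and 142 genes in all were called in place of 291. Without plate 6 neither Tlx2 (3.21, adjusted p = 0.129) nor Tlx3 (adjusted p = 0.0614) was called, and 94 genes in all were. The total was 154 without plate 3, and Gfra1 was not called without plate 5 (adjusted p = 0.0593).

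With Tlx3 in place of Phox2a as the gate gene, Phox2a could be tested. The 17 neurons with Tlx3 and not Pou4f1 (9 and 8 by replicate) were set against 45 with Pou4f1 and not Tlx3 (19 and 26), and 10 neurons had both (8 and 2). Of the 17, 11 were among the Phox2a-positive neurons, and all 45 were among the 54 Pou4f1-positive neurons above. So this comparison is not independent of the first, and the difference in Phox2a follows in part from this overlap. All 5 members tested were higher in the Tlx3-positive neurons, where 6.54% of all genes were called (4.47% higher and 2.06% lower). Phox2a was higher by 3.72 (SE 0.27, adjusted p = 1.17e-05 by limma), Tlx2 by 5.16 (0.000154), Chrna3 by 3.66 (0.0027), Ret by 1.88 (0.000669) and Gfra1 by 1.53 (0.042). Chrna3 differed by 4.95 in replicate 1 and 2.38 in replicate 2. The call of Gfra1 was not made in 7 other settings, among them without plate 1 (adjusted p = 0.0686) and without plate 5 (0.0709). Ret was not called with gates at an FPKM of 1 (0.74, adjusted p = 0.0977). Dbh (4.09, adjusted p = 0.000107) and Th (1.42, adjusted p = 0.0141) were higher too, Th by 2.13 in replicate 1 and 0.71 in replicate 2. The 10 neurons left out for having both genes are those in which Tlx3 and Pou4f1 meet, so this contrast describes the Tlx3 neurons apart from them.

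Tbx20, a T-box gene of branchial and visceral motor neurons, was found in 4 of the 22 Phox2a-positive neurons (2.18 to 67.9 FPKM), 1 on plate 2 of replicate 1 and 3 on plates 5, 5 and 6 of replicate 2, and in 0 of the 54 Pou4f1-positive neurons. Tlx2 was found in 0 of these 4 and in 16 of the other 18, and Tlx3 in 0 of 4 and 13 of 18; a count of 0 in 4 cells allows a share of up to 75%. Chrna3 was found in all 4 (29.5 to 146.0 FPKM, median 57.3) and in 15 of the other 18. The 4 neurons thus held Phox2a and Chrna3, and neither Tlx gene was found in them. Slc18a3 was found in 4 of 4 (30.6 to 263.6 FPKM) and 8 of 18, and Chrnb4 in 4 of 4 (21.1 to 64.1 FPKM) and 9 of 18. Eya2, a placodal gene, was found in 3 of 4 with a median of 9.70 FPKM and in 18 of 18 with a median of 149.1. Neurod1 was found in 3 of 4 with a median of 28.4 FPKM and in 16 of 18 with a median of 359.4, and Neurog2 in 0 of 4 and 8 of 18. These 4 neurons were noted after their values were seen. In a fit without them, added after the data were seen, the differences from Pou4f1-positive neurons were 2.85 for Chrna3 (adjusted p = 0.00515 by limma), 0.84 for Ret (0.0252) and 0.94 for Gfra1 (0.256). Ret was found in 1 of the 4 and 5 of the other 18. Since the 4 had no Tlx2 or Tlx3, the larger differences of these genes without them (5.05 and 2.04) follow from the removal.

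Genes outside the 6 were ranked by likeness to each member, taken as the lower of the correlations of log2(FPKM + 1) over the 237 cells of replicate 1 and the 254 of replicate 2, among 11677 genes. Among the 3 most like Phox2a were Neurod4 (0.56) and Slc18a3 (0.51), and with members included Tlx2 (0.66) stood at rank 1, Chrna3 at rank 4, Tlx3 at 12, Gfra1 at 53 and Ret at 252. Tlx2 was followed most closely by Nrp1 (0.61), Neurod4 (0.59) and Nefl (0.57), and among the 3 nearest to Chrna3 were Nefl (0.59) and Nhlh2 (0.59). The genes most like Tlx3 were Rgs4 (0.54), Nefl (0.52) and Nefm (0.51), 2 of them neurofilament genes. Those most like Ret were Mapt (0.53), Scn3b (0.51) and L1cam (0.48), and those most like Gfra1 were Neurod1 (0.60), Ppp1r14a (0.57) and Nhlh2 (0.57). Neurod4 was thus near both Phox2a and Tlx2, and Nefl near Tlx2, Tlx3 and Chrna3.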

How the data were processed

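Each sample is 1 tdTomato-positive cell; cDNA was made with a SMARTer Ultra Low Input kit (V3) and libraries with Nextera XT, per the labels' protocols. The tools in the submitters' processing notes are cutadapt, FastQC, TopHat, Bowtie, Bowtie2, Cufflinks and SAMtools, on mm10, with no versions. The deposited values were read as log2(FPKM + 1), since undoing this scale gave numbers of 6 significant digits for 99.75% of the values above 0 (relative tolerance 1e-07). Of 19659 rows, 132 with a repeated identifier and 33 without a symbol of their own were left out. The mean log2(FPKM + 1) per class and replicate (at least 5 cells each) was fitted with limma 3.58.1 (R 4.3.3), with the class and the replicate as a block, a trend in the empirical Bayes step and Benjamini-Hochberg adjustment over genes found in at least 5% of cells. The block assumes that all classes of a replicate share the same material, which the labels do not state. The fit was tested on simulated data. Python 3.11.15 with pandas 2.3.3, scipy 1.17.1 and matplotlib 3.10.9 served for the rest. Named genes were the members, genes of the lists, the 10 called genes with the largest difference in each direction with 1 sign in both replicates and on at least 5 plates, and the 3 genes most like each member; exceptions are marked, and some of these genes are not reported here and were left out of the lists. Members and lists were chosen with earlier results of these data known. Limits for a count of 0 are 3 counts of the total.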

Additional observations from a re-analysis of the deposited data

How the results depend on the processing

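All settings are changed 1 at a time. Between Phox2a-positive and Pou4f1-positive neurons, 327 genes were called (54.7% higher). The count was 208 (43.3% higher) with gates at an FPKM of 1, 207 (46.9%) with corrected values, 113 with means weighted by the number of cells, 210 without plate 2 and 217 without plate 6. It was 285 (38.2% higher) with the log2 of the mean FPKM, a setting in which Chrna3 was called in none of the 4 comparisons (1.92 to 2.59). Without the replicate block it was 316, and leaving out the block changed no call of a member in any of the 4 comparisons. Against neuroblasts, 1288 genes were called, 834 with no filter on low values, 542 weighted and 795 without plate 6. Against neurons with neither gene, 291 were called (61.9% higher), with 181 at the gate of 1 (75.1%), 138 with no filter, 440 with the log2 of the mean FPKM (19.1% higher, with the median of all genes at -0.13), 142 corrected (85.9%), 87 weighted (73.6%), 441 with means per plate, 154 without plate 3 and 94 without plate 6. For Tlx3-positive neurons, 669 were called (68.5% higher), with 250 at the gate of 1 (50.8%), 395 corrected, 114 weighted and 419 with means per plate (79.0%). The share of Phox2a cells with Pou4f1 (20.8%) was 2.94% at an FPKM of 10, 0% at 30 and 10% in cells without a source well, and 13.8% to 29.2% with a replicate left out. The share with at least 3 other members (64.2%) was 42.9% at an FPKM of 30 and 51.7% to 79.2% with a replicate left out. The causes of these changes were not tested. A gate of 30 for Phox2a or Tlx3, cells without a source well, neurons with Epcam below 10, and Tlx3 gates without plate 2 or 6 left too few cells to fit. Depth in reads is unknown, and with 22 neurons and 2 replicates a gene at 0 may be present in uncaptured amounts.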
